A study of Mus musculus with 8 samples.

Results

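Imprinted genes were followed from self-renewing to retinoic acid treated mouse ES cells, as a group of 36 named genes from 8 imprinted clusters and a set of other loci. A member was taken up when a probe that is not a control carried its symbol as gene name, and where a gene had several probes the one with the highest mean over the 8 arrays stood for it. In this way 35 of the 36 members were found, with 67 probes in all, among 36406 gene or transcript names on the array. *Rian*, a maternally expressed non-coding RNA of the *Dlk1*-*Dio3* region, was not found under that name and has no value here.

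Imprinted genes are transcribed mainly from the chromosome of one parent, because a methylation mark set in the germ line at an imprinting control region is kept through development. They lie in clusters in which protein-coding genes, often growth factors, their receptors or cell cycle inhibitors, share a control region with long non-coding RNAs of the opposite parental origin, such as *H19*, *Airn*, *Kcnq1ot1* and *Meg3*. Many of them are low in the early embryo and high in placenta, extraembryonic membranes and growing fetal tissues. A 1-colour array reads the RNA of both alleles together, so the values below are total levels and carry no information on which parental allele was transcribed.

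The cells were E14Tg2A.4, a feeder-independent mouse ES cell line that is a single subclone, and no genetic change was introduced into the cells of either group. One group of 4 cultures was left untreated, and the other group of 4 received 1 µM all-trans retinoic acid (RA), a signal that drives ES cells out of self-renewal, for 72 h in medium without the self-renewal factor LIF. The 2 groups therefore differ in RA and in the time since self-renewal medium together, and the part of each cannot be told apart. RNA of each culture was hybridized to 1 array, and each slide held 2 untreated and 2 RA arrays. Levels are given as log2 intensity relative to the array's 75th percentile, so that 0 marks that percentile and a difference of 1 is a change of 2-fold. A gene was called when limma's adjusted p over all 55681 probes was under 0.05 and the change was above 1.5-fold.

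The labelled cell type was borne out by its markers in the untreated arrays, where all 8 ES cell markers, among them *Pou5f1*, *Nanog* and *Esrrb*, were well above background, and all 8 fell with RA. Calls among markers of other cell types are set against 13.9% of all names called up and 22.1% called down. Primitive endoderm, fibroblast and trophoblast markers had calls up only, while neural and mesoderm markers had calls in both directions. The median log2 change of the mesoderm markers, -0.28, was that of all names. The mean level over 10 primitive endoderm markers was -1.86 to -0.70 on untreated and 1.28 to 1.64 on RA arrays, with 9 of the 10 called up. For 7 fibroblast markers it was -1.52 to -1.08 and 1.75 to 3.104, with 5 called up, *Postn* not being well above background on any untreated array. For 7 trophoblast markers it was -4.50 to -4.26 and -2.69 to -1.38, with 4 called up, and *Tpbpa* was not well above background on any of the 8 arrays. Neural markers gave 2 of 6 called up and 1 down with means of -2.52 to -2.05 and -1.88 to -1.11, and mesoderm markers gave 2 of 7 called up and 2 down with means of -4.64 to -3.85 and -3.65 to -3.31. Of these calls, *Elf5* (trophoblast), *Dcx* (neural) and *Hand2* (mesoderm) were called up with no untreated array well above background, *Mesp1* was called down with no RA array well above it, and *Mixl1* was called down with none in either group. The part of these cell types in the changes of the imprinted genes was not tested, and in such bulk RNA fewer cells of a type and less RNA per cell cannot be told apart.

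Most of the imprinted genes were higher after RA. Of the 35 members, 22 were called up (62.9%), against a background of 13.9% of all 36406 names by the same rule, and 1, *Snrpn*, was called down (2.86%) against a background of 22.1%. The members and the other gene lists were chosen with earlier results of these data known, so such shares describe the listed genes only. The values of the groups did not overlap for any of the 22, nor for *Snrpn*. A call up without overlap was made for 13.1% of all names, and of the names called up 94.2% had none, so its absence is common among called genes. The median log2 change of the members was 1.93, that of all names -0.28. Among the members 17 rose at least 4-fold, 12 at least 8-fold and 6 at least 32-fold, the last being *Igf2*, *H19*, *Airn*, *Dlk1*, *Nnat* and *Zim1*. The 32-fold count rests on how background was removed: it was 4, without *Nnat* and *Zim1*, with normexp background correction, with or without quantile normalization, and in the authors' table, and between 5 and 7 with an array left out. On all 8 arrays 31 members were well above background, and no spot of a member was saturated.

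**Figure D1:**
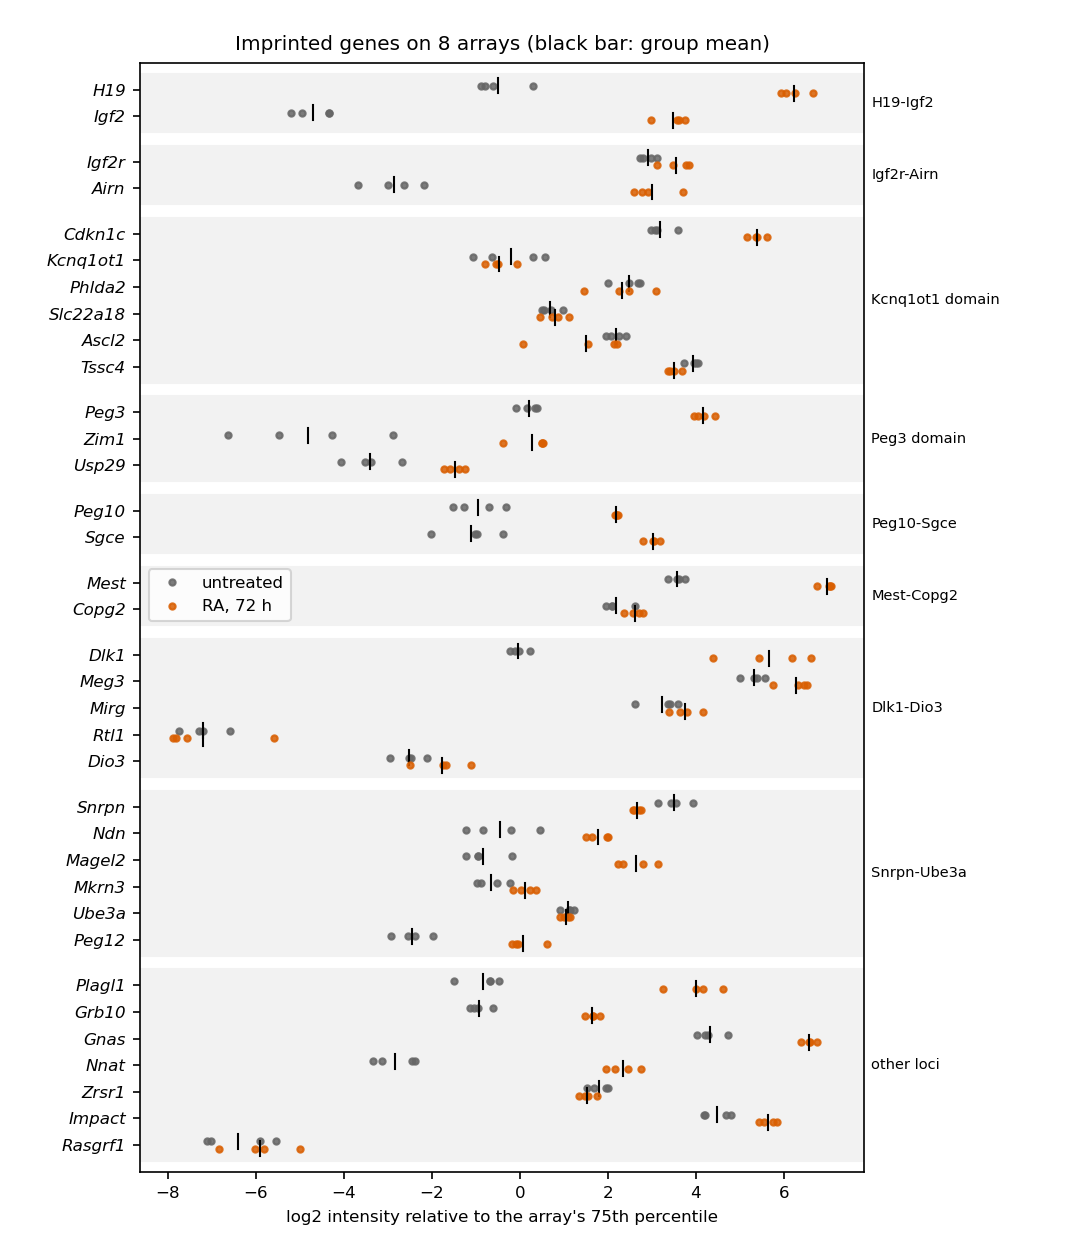
Level of each imprinted gene on the 8 arrays. The horizontal axis gives log2 intensity relative to the 75th percentile of the array, grey points are the 4 untreated and orange points the 4 RA arrays, black bars are group means, and rows are ordered by imprinted cluster. Orange points lie to the right of all grey points for 22 genes and to the left of all grey points for *Snrpn* and *Tssc4*. Levels of different genes come from different probes and cannot be set against each other.

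By the parental allele that textbook knowledge gives as the expressed one, 21 members on the array are paternally and 12 maternally expressed, *Copg2* and *Ube3a* among the latter in some tissues only, while *Grb10* and *Gnas* depend on isoform or tissue. Among all names 13.9% were called up and 22.1% down, with a median log2 change of -0.28. Of the paternally expressed members 15 were called up, 1 down and 5 neither, with a median log2 change of 2.53. Of the maternally expressed members 5 were called up, 0 down and 7 neither, with a median of 0.46; by limma's unadjusted p under 0.05, 6 of the 12 were higher and 1 was lower. Without *Copg2* and *Ube3a*, 5 of 10 were called up, with a median of 0.57. The difference between the parental classes was not tested, since genes of 1 cluster share their control regions and are not separate replicates.

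**Figure D2:**
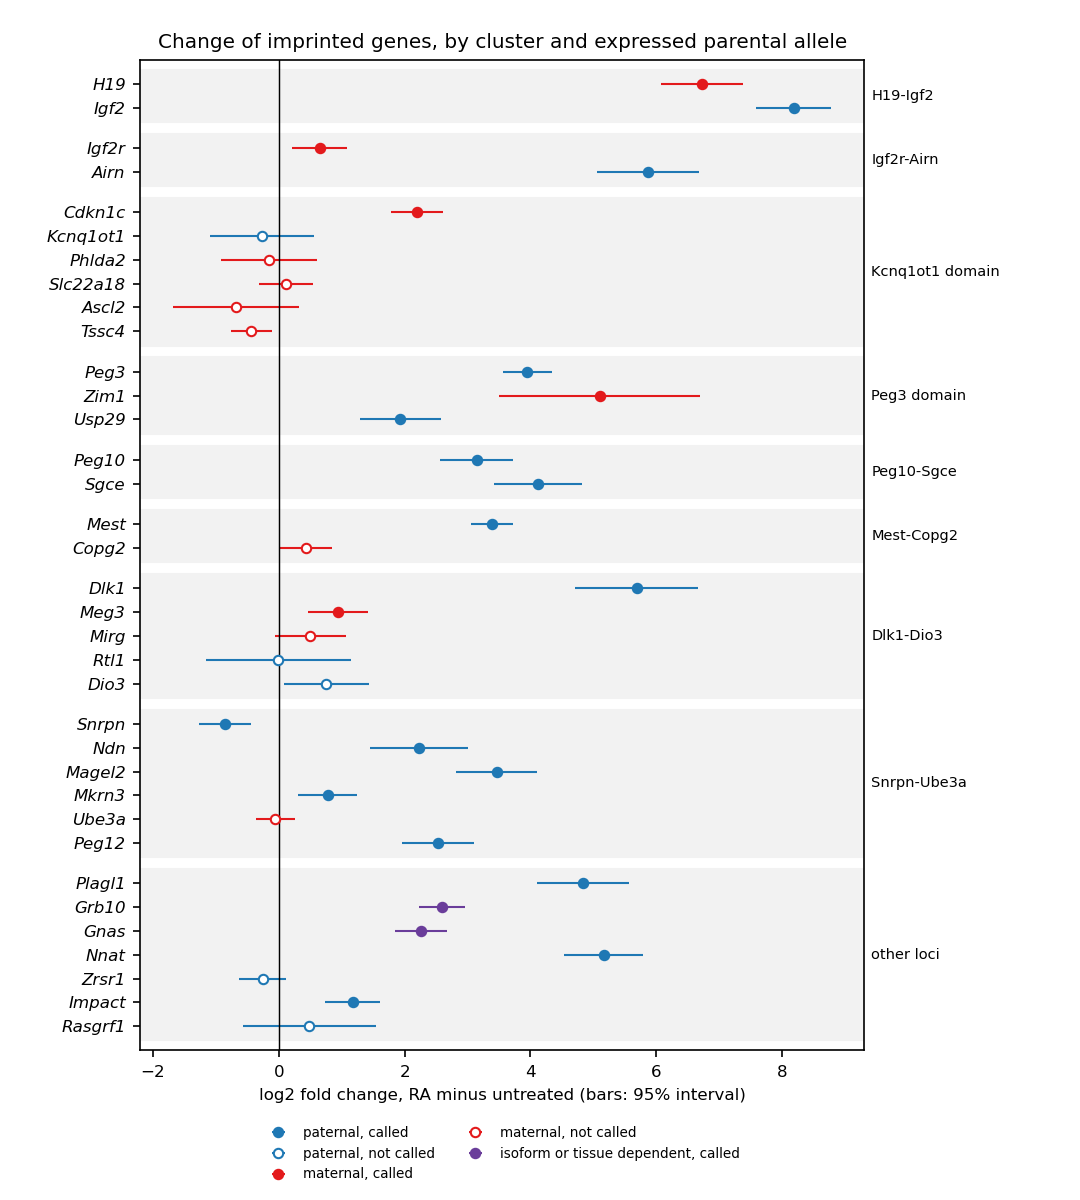
Change of each imprinted gene with RA. The horizontal axis gives the log2 fold change, RA minus untreated, with its 95% interval from limma, colours give the parental allele known to be expressed, and open symbols are genes that were not called. *Igf2* stands farthest to the right at 8.19 and *Snrpn* is the only filled symbol left of 0, at -0.85.

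Both members of the *H19*-*Igf2* cluster on distal chromosome 7 rose by far over the spread of the cultures. *H19* is a maternally expressed long non-coding RNA, and *Igf2* the paternally expressed fetal growth factor with which it shares enhancers. The probe of *H19* (chr7:149761492-149761551 on mm9, minus strand) read -0.80, 0.29, -0.60 and -0.89 on untreated arrays 1 to 4 and 6.67, 6.04, 6.26 and 5.93 on RA arrays 1 to 4. The lowest RA value lay 5.64 above the highest untreated one. The difference was 6.72 ± 0.29 (SE, n = 4 per group; limma, adjusted p = 2.08e-06), which is 106-fold with a 95% interval from 67.2 to 166. All 6 probes of *H19* gave changes between 6.56 and 7.21. *Igf2* read -4.33, -4.96, -4.33 and -5.20 without RA, where 3 of the 4 arrays were well above background, and 3.76, 2.97, 3.62 and 3.57 with RA. Its change of 8.19 ± 0.26 (adjusted p = 9.01e-07), or 291-fold, was the highest of the 35 members with the processed intensities. With normexp correction it was 6.46, or 87.8-fold, and 6.62 in the authors' table, both below the 6.59 and 6.73 of *H19*, so the order of the pair depends on the correction. Each gene also holds a microRNA hairpin within its span, which shows how these loci carry small RNAs besides the measured transcripts; the microRNAs themselves were not measured. Shown are the array probe that carries the *H19* result, from the scanner output, and the mature microRNAs of the hairpins in *H19* (miR-675) and *Igf2* (miR-483) from RefSeq on GRCm38.p6, with the seed, bases 2 to 8, in capitals.
H19 probe: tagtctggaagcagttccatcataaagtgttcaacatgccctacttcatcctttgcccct
mmu-miR-675-5p: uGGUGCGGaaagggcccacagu
mmu-miR-675-3p: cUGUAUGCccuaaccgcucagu
mmu-miR-483-5p: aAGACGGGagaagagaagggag
mmu-miR-483-3p: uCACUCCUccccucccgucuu

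The *Igf2r*-*Airn* pair on chromosome 17 split in size. *Airn* is a paternally expressed non-coding RNA that starts inside *Igf2r* and runs antisense to it, and *Igf2r* is the maternally expressed receptor that clears Igf2. *Airn* (probe at chr17:12944784-12944843, plus strand) read -3.00, -2.18, -2.62 and -3.68 on the untreated and 3.71, 2.92, 2.60 and 2.76 on the RA arrays. The lowest RA value was 4.78 above the highest untreated one. The change was 5.87 ± 0.35 (adjusted p = 7.46e-06), 58.5-fold, and a second probe well above background on all arrays gave 4.38. The other 2 probes were not well above background on any untreated array, and their rises are given as at least 81.3-fold, against the lowest signal well above background, and 25.4-fold as measured (95% interval 16.2 to 39.6), where the untreated signal lay above that limit. With normexp correction it was 5.12, or 34.7-fold. *Igf2r* read 2.79, 2.72, 3.12 and 2.99 without and 3.84, 3.13, 3.48 and 3.77 with RA, so that the lowest RA array, array 2, lay only just above the highest untreated one, array 3. Its difference of 0.65 ± 0.19 (adjusted p = 0.0276; 1.57-fold, 95% interval 1.15 to 2.12) was only just called. It was 0.85 on slide 1 and 0.45 on slide 2, called on neither alone (adjusted p = 0.103 and 0.387), and the call was also lost when untreated array 1 or 2 or RA array 1, 3 or 4 was left out (adjusted p 0.0525 to 0.0818). The probe of *Airn* and the 250 bases before its RefSeq start (chr17:12741061-12741310 on GRCm38.p6, plus strand) are shown because *Airn* carries the change of this locus; capitals mark the 1 copy of AGGTCA, the half-site bound by nuclear receptors such as those for retinoic acid, here read on the other strand.
Airn probe: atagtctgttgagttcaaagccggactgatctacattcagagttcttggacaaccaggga
Airn upstream: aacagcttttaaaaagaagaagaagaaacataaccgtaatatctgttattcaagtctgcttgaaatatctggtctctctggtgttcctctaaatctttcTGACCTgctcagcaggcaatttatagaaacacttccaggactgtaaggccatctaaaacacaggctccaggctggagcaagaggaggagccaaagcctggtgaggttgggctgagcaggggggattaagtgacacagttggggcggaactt
That half-site, on either strand and with overlapping copies counted, was found in the 250 bases before a start of 15.8% of the 27025 genes in the RefSeq promoter table, and of 4 of the 30 members with such a window (13.3%), namely *Igf2*, *Igf2r*, *Airn* and *Meg3*. A match of 6 letters is a description of the window and not a binding site.

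In the *Kcnq1ot1* domain, the neighbour of *H19*-*Igf2* on chromosome 7, 1 of 6 members was called. *Cdkn1c*, the maternally expressed inhibitor of cyclin-dependent kinases known as p57, read 3.07, 2.98, 3.58 and 3.11 without and 5.61, 5.36, 5.39 and 5.17 with RA. All RA arrays lay above all untreated arrays, with a gap of 1.58 between them. The change was 2.20 ± 0.18 (adjusted p = 2.98e-05), 4.58-fold. The other five stayed below the threshold. *Kcnq1ot1*, the paternally expressed non-coding RNA of the domain, differed by -0.27 (95% interval -1.09 to 0.56), and its second probe by -0.43. The array also carries 5 probes spelled KCNQ1ot1, which the naming rule leaves out, and only 2 of these were well above background on 2 arrays of a group. Their changes ranged from -0.92 to 0.14, and 0 of them were called by limma (0 at an unadjusted p under 0.05). *Phlda2*, a growth-limiting gene of the placenta, differed by -0.16 (-0.92 to 0.60), and *Slc22a18*, a membrane transporter, by 0.11 (-0.32 to 0.54). *Ascl2*, a transcription factor of the trophoblast, read 2.40, 2.08, 2.26 and 1.96 without and 2.22, 2.15, 1.55 and 0.06 with RA. The mean difference of -0.68 (-1.68 to 0.32; adjusted p = 0.228) became -0.20 without RA array 4, the low one. *Tssc4* was lower on every RA array, at 3.37, 3.51, 3.68 and 3.42 against 4.01, 3.95, 3.72 and 4.04, and its difference of -0.43 (adjusted p = 0.0398) was under the 1.5-fold limit. These intervals leave changes of more than 1.5-fold open for *Kcnq1ot1*, *Phlda2*, *Ascl2* and *Tssc4*, whereas that of *Slc22a18* does not reach 1.5-fold.

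All 3 members of the *Peg3* domain on proximal chromosome 7 rose. *Peg3*, a paternally expressed zinc finger protein, read 0.40, 0.35, -0.09 and 0.16 without and 4.44, 3.96, 4.04 and 4.18 with RA. A gap of 3.57 lay between the groups. Its change was 3.95 ± 0.17 (adjusted p = 2.17e-06), 15.5-fold, and a second probe gave 4.69. *Usp29*, a paternally expressed ubiquitin protease gene that starts head to head with *Peg3*, read -3.53, -3.39, -2.67 and -4.08 without and -1.58, -1.72, -1.39 and -1.24 with RA. It rose by 1.93 ± 0.28 (adjusted p = 6.76e-04), 3.82-fold, and by 1.30 with normexp correction. *Zim1*, a maternally expressed zinc finger gene, read -4.27, -6.63, -2.89 and -5.47 without RA, where 2 of 4 arrays were well above background, and 0.51, -0.39, 0.50 and 0.52 with RA. RA array 2 was the lowest of its group, and the untreated values were spread over 3.74. The fitted change was 5.10 ± 0.70 (adjusted p = 5.00e-04), and 5.66 at a second probe. It was 3.28 with normexp correction, 3.40 in the authors' table, 4.09 on slide 1, 6.11 on slide 2, 4.497 without untreated array 2 and 5.74 without untreated array 3. The bases between the starts of *Peg3* and *Usp29* (chr7:6730420-6730582 on GRCm38.p6, plus strand, RefSeq) are shown because the genes that start at its ends both rose, and the stretch is 163 bases long; capitals mark its 5 CpG dinucleotides, the bases at which imprint methylation is set.
Peg3-Usp29: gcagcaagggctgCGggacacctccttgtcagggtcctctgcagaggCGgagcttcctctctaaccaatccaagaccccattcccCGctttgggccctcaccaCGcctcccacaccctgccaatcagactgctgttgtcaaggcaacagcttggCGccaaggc

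The *Peg10*-*Sgce* and *Mest*-*Copg2* clusters share chromosome 6. *Peg10*, a gene derived from a retrotransposon and needed in the placenta, read -1.28, -0.31, -0.71 and -1.52 without and 2.21, 2.18, 2.22 and 2.15 with RA, and *Sgce*, which encodes epsilon-sarcoglycan, read -2.01, -1.03, -0.39 and -0.98 and 3.18, 2.81, 3.05 and 3.02. The 4 RA values of *Peg10* lay within 0.07 of each other, closer than those of the untreated arrays. Both rose, *Peg10* by 3.14 ± 0.26 (adjusted p = 2.94e-05; 8.84-fold) and *Sgce* by 4.12 ± 0.31 (adjusted p = 2.02e-05; 17.4-fold). *Mest*, a paternally expressed hydrolase also known as Peg1, read 3.37, 3.57, 3.76 and 3.61 without and 7.07, 7.04, 6.75 and 7.01 with RA. The untreated values lay within 0.38 and the RA values within 0.33 of each other. The change was 3.39 ± 0.15 (adjusted p = 2.17e-06), 10.5-fold, and all 3 probes gave 3.39 to 3.82. The neighbour *Copg2*, a coat protein gene that runs towards *Mest* from the other side and is maternally expressed in some tissues, differed by 0.42 (95% interval 0.00 to 0.85; adjusted p = 0.106) at the brighter probe and by 0.51 (adjusted p = 0.0457) at the other. Both fall short of 1.5-fold. The 250 bases before the start of *Mest* that holds most copies of TGCCGC (chr6:30737800-30738049 on GRCm38.p6, plus strand) are printed with both copies in capitals; it is the hexamer that Zfp57, a protein that keeps imprints, binds when methylated, and here it reads GCGGCA on the printed strand.
Mest upstream: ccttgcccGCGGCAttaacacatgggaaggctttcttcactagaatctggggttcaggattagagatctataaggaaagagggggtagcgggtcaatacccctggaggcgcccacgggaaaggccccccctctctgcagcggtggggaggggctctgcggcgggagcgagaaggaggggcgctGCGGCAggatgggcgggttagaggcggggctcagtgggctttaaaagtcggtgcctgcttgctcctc
On either strand TGCCGC was present before a start of 9.84% of the genes in the same table and of 5 of the 30 members with a window (16.7%): *Zim1*, *Mest*, *Copg2*, *Meg3* and *Plagl1*.

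The *Dlk1*-*Dio3* cluster on chromosome 12 gave a large change at *Dlk1* alone among its members. *Dlk1*, a paternally expressed membrane protein of the Notch ligand family, read -0.12, -0.22, -0.02 and 0.22 without and 5.44, 4.38, 6.19 and 6.62 with RA. The RA arrays ranged over 2.24, with array 2 lowest, and all were above the untreated ones by 4.16 or more. Its change was 5.69 ± 0.43 (adjusted p = 2.11e-05), 51.6-fold. *Meg3* (also called *Gtl2*), a maternally expressed non-coding RNA and a common measure of imprint state in stem cell lines, read 5.57, 5.32, 5.001 and 5.39 without and 6.46, 5.75, 6.31 and 6.53 with RA. The groups did not overlap, and the gap between RA array 2 and untreated array 1 was 0.17. It rose by 0.94 ± 0.21 (adjusted p = 0.00755), 1.92-fold (95% interval 1.37 to 2.68), and 3 probes gave 0.94 to 1.17. The change was 1.21 on slide 1 and 0.67 on slide 2, and neither slide alone, with 2 arrays per group, gave a call. *Mirg*, a maternally expressed microRNA host, read 3.58, 3.40, 2.62 and 3.35 and 3.79, 3.39, 3.63 and 4.15, a difference of 0.50 (-0.06 to 1.07; adjusted p = 0.149), which was called at 0.66 in the authors' own log2 table and at 0.67 with normexp and quantile normalization. *Dio3*, the paternally expressed enzyme that inactivates thyroid hormone, read -2.94, -2.52, -2.12 and -2.48 and -1.75, -2.49, -1.11 and -1.68, a difference of 0.76 (0.08 to 1.43; adjusted p = 0.0756). With the replicate number as a block the adjusted p of *Dio3* was 0.0495, with dim probes left out 0.0469, and without RA array 2 it was 0.0168, all of them calls. *Rtl1*, a paternally expressed retrotransposon-derived gene of the placenta, was not well above background on any array. The probe of *Meg3* (chr12:110809678-110809737 on mm9, plus strand) and the 250 bases before its first RefSeq start (chr12:109540746-109540995 on GRCm38.p6, plus strand) are shown with the 1 copy of TGCCGC in capitals.
Meg3 probe: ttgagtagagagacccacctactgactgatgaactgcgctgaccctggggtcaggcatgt
Meg3 upstream: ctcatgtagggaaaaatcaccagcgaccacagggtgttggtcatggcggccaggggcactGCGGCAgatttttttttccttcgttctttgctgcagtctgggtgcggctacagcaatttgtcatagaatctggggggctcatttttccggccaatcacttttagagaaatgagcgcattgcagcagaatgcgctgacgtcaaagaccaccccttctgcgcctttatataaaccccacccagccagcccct

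In the *Snrpn*-*Ube3a* cluster of central chromosome 7, the counterpart of the human Prader-Willi and Angelman region, members moved in both directions. *Snrpn*, a paternally expressed splicing protein gene that lies at the control region, was the one member that fell. It read 3.13, 3.43, 3.54 and 3.92 on the untreated and 2.58, 2.57, 2.70 and 2.75 on the RA arrays. Untreated array 1, the lowest of its group, was still above every RA array. The change was -0.85 ± 0.18 (adjusted p = 0.00588), which is 1.80-fold lower with RA, and its 3 probes gave -1.45 to -0.85. It was -0.66 on slide 1 and -1.04 on slide 2 and was called on neither slide alone. The paternally expressed genes at the other end of the cluster rose. *Ndn*, known as a growth suppressor of neurons, read -1.22, -0.84, 0.47 and -0.21 without and 1.63, 1.50, 2.00 and 1.97 with RA, and *Magel2*, of the same MAGE family, read -0.96, -0.96, -0.19 and -1.23 and 2.23, 3.15, 2.34 and 2.80. For both, every RA value was above every untreated value. *Ndn* changed by 2.23 ± 0.34 (adjusted p = 9.59e-04; 4.68-fold) and *Magel2* by 3.46 ± 0.28 (adjusted p = 2.91e-05; 11.03-fold). *Peg12*, a gene without introns also called *Frat3*, read -2.55, -2.92, -1.96 and -2.37 and -0.18, -0.08, -0.04 and 0.62, a rise of 2.53 ± 0.25 (adjusted p = 8.45e-05; 5.79-fold). A second *Peg12* probe, well above background on all arrays, gave -0.03, and the mean of its probes changed by 1.25, or 2.38-fold. *Mkrn3*, which encodes a ubiquitin ligase with zinc fingers, read -0.88, -0.97, -0.23 and -0.52 and 0.03, -0.15, 0.24 and 0.38, with RA array 2 just above untreated array 3. The rise of 0.77 ± 0.21 (adjusted p = 0.0168; 1.71-fold) was lost without RA array 4 (adjusted p = 0.0517) and on either slide alone (0.199 and 0.162). *Ube3a*, the ubiquitin ligase that is maternally expressed in neurons and biallelic elsewhere, differed by -0.05 (95% interval -0.37 to 0.26), an interval that does not reach 1.5-fold. A dimmer probe of *Ube3a* rose by 1.13 (limma, adjusted p = 0.0190).

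Of the 7 members outside these clusters 5 rose. *Plagl1* (also *Zac1*), a paternally expressed zinc finger factor that restrains growth, read -0.68, -0.48, -0.67 and -1.50 without and 4.01, 3.25, 4.16 and 4.62 with RA. The gap between the groups was 3.73. Its change was 4.84 ± 0.32 (adjusted p = 1.17e-05), 28.7-fold. Probes further upstream gave 0.76 and -0.82, and the mean of its probes changed by 2.40, or 5.28-fold. *Nnat*, a paternally expressed small membrane protein of brain and endocrine cells, read -2.38, -3.14, -3.34 and -2.45 without and 2.76, 2.47, 1.95 and 2.16 with RA. It rose by 5.16 ± 0.27 (adjusted p = 4.52e-06), 35.8-fold, with no overlap of the groups, and by 4.56 with normexp correction. *Grb10*, an adaptor that dampens insulin and growth factor receptors and is maternally expressed in most tissues and paternally in neurons, read -1.13, -0.62, -1.05 and -0.96 and 1.48, 1.65, 1.65 and 1.81. It rose by 2.59 ± 0.16 (adjusted p = 8.35e-06; 6.02-fold), and the 4 RA values lay within 0.33 of each other. *Gnas*, the stimulatory G protein alpha subunit, read 4.20, 4.27, 4.03 and 4.74 and 6.58, 6.39, 6.57 and 6.75 at the probe of its common end. This probe rose by 2.26 ± 0.18 (adjusted p = 2.81e-05; 4.80-fold). A *Gnas* probe further upstream changed by -1.86, and the mean of the gene's probes by 0.72, or 1.65-fold. *Impact*, a paternally expressed regulator of translation, read 4.69, 4.21, 4.18 and 4.81 and 5.84, 5.76, 5.55 and 5.43. It rose by 1.17 ± 0.19 (adjusted p = 0.00141; 2.26-fold), and by 1.20 and 1.15 on slides 1 and 2, neither called alone. *Zrsr1*, a splicing factor gene, differed by -0.26 (-0.63 to 0.12), and *Rasgrf1*, a Ras activator of neurons, was well above background on 1 RA array only. The 250 bases before the *Plagl1* start (chr10:13090582-13090831 on GRCm38.p6, plus strand) are shown with the 1 copy of TGCCGC in capitals, since of the members with this hexamer before a start it and *Mest* rose most among those with 4 untreated arrays well above background.
Plagl1 upstream: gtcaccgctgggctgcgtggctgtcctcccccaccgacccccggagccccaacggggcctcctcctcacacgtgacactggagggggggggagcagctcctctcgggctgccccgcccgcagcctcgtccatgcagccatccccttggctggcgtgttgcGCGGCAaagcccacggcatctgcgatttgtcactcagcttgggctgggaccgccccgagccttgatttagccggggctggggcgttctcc

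Several probes read different stretches of the same gene, and for 14 of the 18 members with more than 1 usable probe, that is well above background on at least 2 arrays of a group, all went in one direction. The exceptions were *Plagl1*, *Gnas*, *Peg12* and *Ube3a*. RNA was labelled from its poly(A) end with oligo-dT, so a probe far from that end reads less of a transcript, and the part of this in the differences was not tested. At *Plagl1* the brightest probe and one 0.448 kb downstream rose by 4.84 and 4.83, whereas one 1.98 kb upstream gave 0.76 (adjusted p = 0.0233) and one 2.41 kb upstream gave -0.82 (adjusted p = 0.00773). At *Gnas*, a locus with several alternative first exons, a probe 49.6 kb upstream of the brightest one fell by 1.86 (adjusted p = 0.00118), one 8.43 kb upstream rose by 1.76 (adjusted p = 0.0221), and one 46.5 kb upstream was dim on all arrays. The second *Peg12* probe, 1.40 kb away towards the start, gave -0.03, and a probe of a *Ube3a* splice form, well above background on 2 untreated arrays, rose by 1.13 (adjusted p = 0.0190). Taken as the mean of a gene's probes, the change was 2.40 for *Plagl1*, 0.72 for *Gnas* and 1.25 for *Peg12*.

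**Figure D3:**
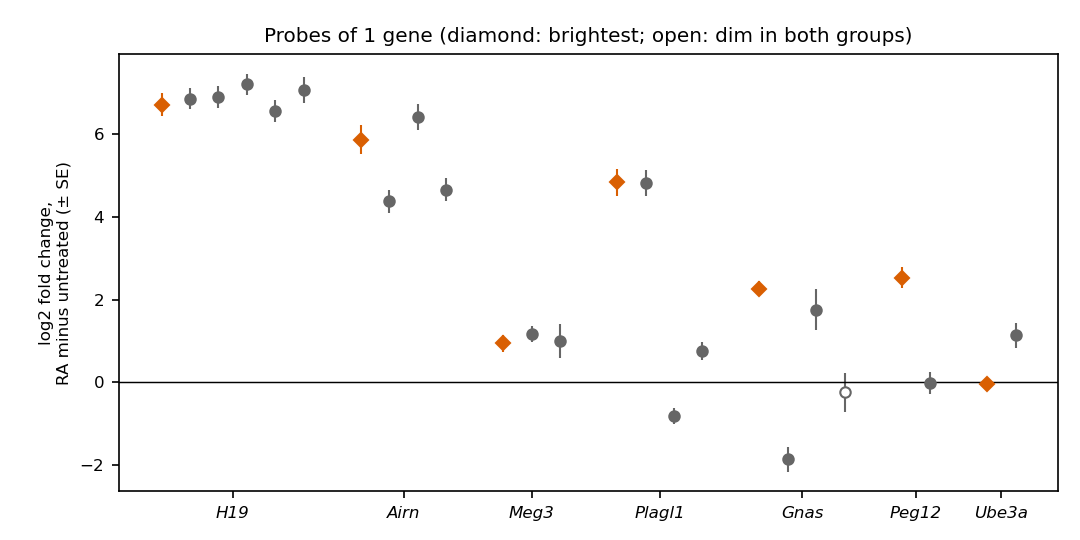
Log2 fold change, RA minus untreated, of each probe of 7 genes, with its standard error from limma. Diamonds are the brightest probe of a gene, circles its other probes, and the open circle a probe that was dim in both groups; the *Airn* circles at 6.42 and 4.67 were dim on all untreated arrays. The 6 *H19* probes lie between 6.56 and 7.21, while *Plagl1* and *Gnas* have probes on both sides of 0.

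Probes between the outermost member probes of a cluster showed what else was transcribed there. Of 240 such probes that belong to no member, 192 are named by position only, 37 were called up (15.4%) and 18 down (7.50%), against 12.9% up and 21.6% down among all 55681 probes. The calls down depend on the scaling: with quantile normalization they were 6 of the 240. They were 7 of the 240, and 6575 of all probes in place of 12044, in the authors' table. Calls up were 13 of the 240 on slide 2 alone and 18 in a test against 1.5-fold. Among all probes 3964 and 4171 were called up in these settings, in place of 7196. Of the 240, 129 were well above background on 2 arrays of a group. Between *Igf2r* and *Airn*, over 133 kb, all 8 other probes are on the plus strand, that of *Airn*, and all 8 were called up, by 4.03 to 6.52. For 4 of them, which were not well above background on any untreated array, the rise was at least 20.0-fold and at least 27.7-fold for 2 against the lowest signal well above background, and 85.6-fold and 91.6-fold as measured for the other two, whose untreated signals lay above that limit.

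Between *Meg3* and *Mirg* on chromosome 12 probes lie on both strands. Among all probes 12.9% were called up and 21.6% down. On the plus strand, which *Meg3* and *Mirg* share, 20 of 44 other probes were called up, by 0.99 to 1.83, 1 was called down, and the median change was 1.01. On the minus strand 0 of 26 were called in either direction by limma (1 higher and 2 lower at an unadjusted p under 0.05), and only 15 of these 26 were well above background on 2 arrays of a group. The median change was -0.10 over all 26 and 0.22 over these 15, against 1.02 over the 43 such probes of the plus strand. *Rian* is known to lie in this stretch, but no probe was matched to it. The one plus-strand probe called down, EU616813, changed by -2.64 (adjusted p = 0.0107). Between *Dlk1* and *Meg3*, about 51.5 to 51.7 kb from the *Dlk1* probe, 4 minus-strand probes of a single position-named transcript fell by 1.73 to 3.68, opposite in direction to *Dlk1* and *Meg3* on either side. Near *Dio3* at the far end, 1 usable minus-strand probe was called up, by 2.04. The other two calls down of the cluster, by -1.35 between *Dlk1* and *Meg3* and by -0.88 between *Mirg* and *Dio3*, were plus-strand probes not well above background on any array. Whether strands or stretches differ was not tested.

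**Figure D4:**
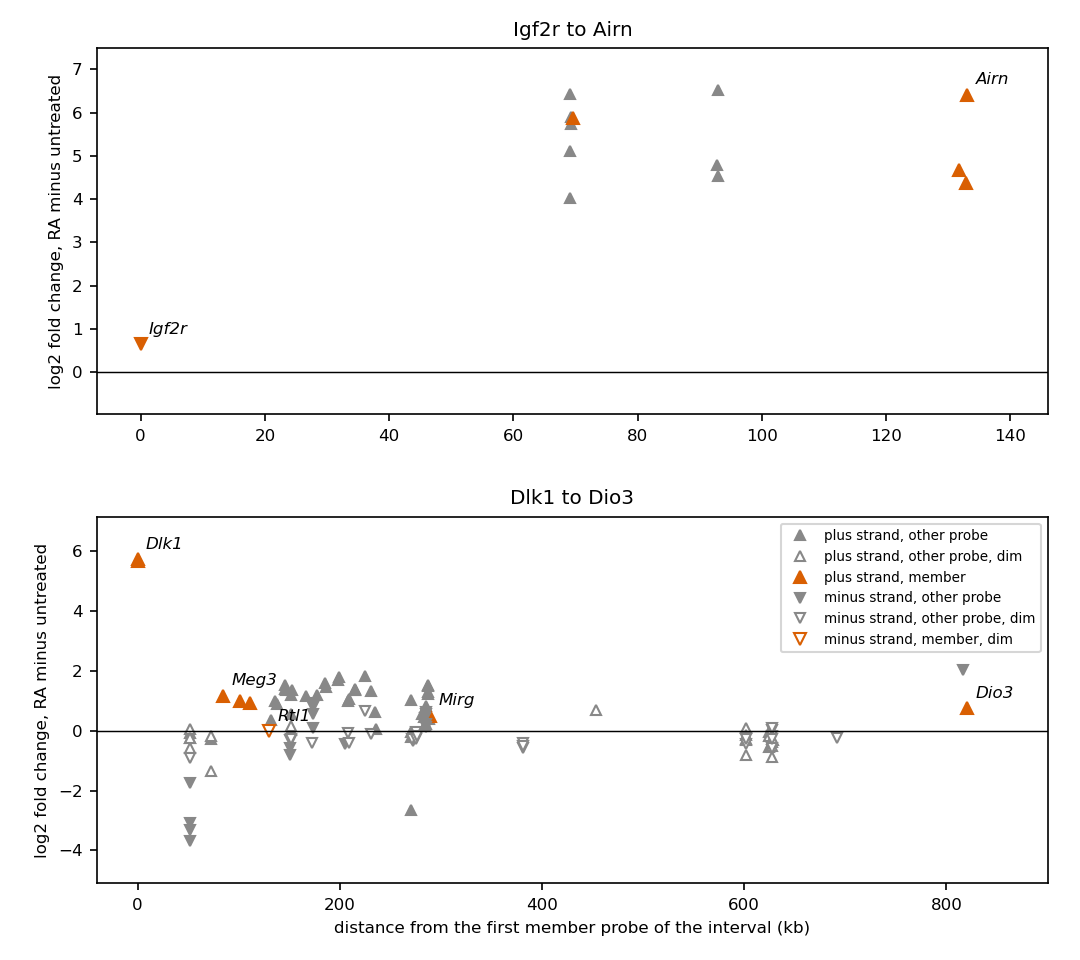
Log2 fold change, RA minus untreated, of every probe in 2 imprinted intervals, by distance in kb from the first member probe. Triangles point up for plus-strand and down for minus-strand probes, orange marks members and grey other probes, and open symbols were not well above background on 2 arrays of either group. The upper panel shows plus-strand probes at 4.03 to 6.52, 4 of the grey ones being dim on all untreated arrays, and the lower panel a band of plus-strand probes near 1 from *Meg3* to *Mirg* and 4 minus-strand probes below -1.7 between *Dlk1* and *Meg3*.

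A wider list of 49 other imprinted genes, of which 46 are on the array, held calls in both directions. Of these, 21 were called up (45.7%, against 13.9% of all names) and 9 down (19.6%, against 22.1%), with a median log2 change of 0.59. The difference between this list and the members was not tested. The 2 with the highest increase were *Dcn*, the matrix proteoglycan decorin, at 8.07 ± 0.32 (adjusted p = 1.80e-06), and *Igf2as*, the antisense RNA of *Igf2*, at 7.11 ± 0.16 (adjusted p = 3.04e-07), on the strand opposite to the *Igf2* probe. The 2 with the largest decrease were *Cobl*, an actin nucleator beside *Grb10*, at -3.62 ± 0.32 (adjusted p = 4.49e-05), and *Qpct*, glutaminyl cyclase, at -2.03 ± 0.40 (adjusted p = 0.00382). *Dcn* is also an abundant gene of fibroblasts, whose markers rose on the same arrays as given above.

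Most of 16 genes that act on DNA methylation or bind imprinting control regions were lower after RA. The list holds methyltransferases, proteins that keep imprints, insulator proteins and the oxidases that act against methylation. All were on the array and well above background on all arrays, 11 fell (68.8%, against 22.1% of all names) and 0 were called up by limma (against 13.9%; 0 higher and 15 lower at an unadjusted p under 0.05), with a median log2 change of -0.89 against -0.28 for all names. *Zfp57*, the zinc finger protein that binds methylated TGCCGC, fell by 1.45 ± 0.16 (adjusted p = 1.61e-04), and its partner in kind *Zfp445* by 0.88. *Trim28* and *Setdb1*, the corepressor and histone methyltransferase they recruit, fell by 0.90 and 0.86. Among DNA methyltransferases *Dnmt3b* fell by 1.84 and the cofactor *Dnmt3l* by 1.97, while *Dnmt1* differed by -0.54, its cofactor *Uhrf1* by -0.49 and *Dnmt3a* by 0.67, none of these called. Of these *Dnmt1* missed only the fold limit (limma, adjusted p = 0.0345). *Dppa3*, which protects imprints in the egg and early embryo, fell by 5.998, the helicase *Hells* by 0.71, the CTCF paralogue *Ctcfl* by 2.90, and the 5-methylcytosine oxidases *Tet1* and *Tet2* by 3.45 and 1.97. *Ctcf*, the insulator protein of the *H19*-*Igf2* control region, and *Tet3* differed by -0.37 and -0.55 and were not called. *Tet3* too missed only the fold limit (limma, adjusted p = 0.0272), and without that limit 13 of the 16 were called down. *Dppa3*, *Dnmt3l*, *Dnmt3b* and *Tet1* are also abundant in ES cells, and the ES cell markers fell on the same arrays, at a mean level of 5.33 to 5.74 without and 1.37 to 2.87 with RA. The part of this in their change was not tested.

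**Figure D5:**
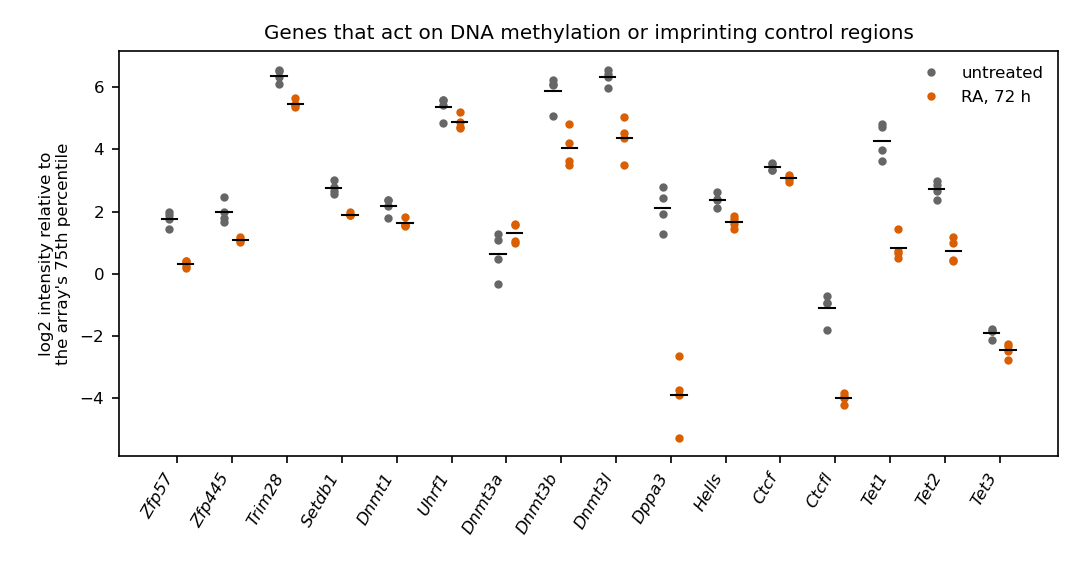
Level on the 8 arrays of 16 genes that act on DNA methylation or bind imprinting control regions. The vertical axis gives log2 intensity relative to the 75th percentile of the array, grey points are untreated and orange points RA arrays, and black bars are group means. The orange points lie below the grey ones for 13 of the 16 genes, among them all 11 that fell. The share of all names with such a separation was not counted, and 22.1% of them were called down.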

How the data were processed

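The authors deposited the Feature Extraction (version 10.7.3.1) output of each 1-colour array, with a processed intensity (background-subtracted and detrended by that program, and not scaled between arrays), the raw intensity of spot and local background, and flags per spot. They also deposited log2 values of the same spots, which share one distribution on all 8 arrays; background correction and normalization of that table are not given in the sources used here. RNA was amplified from oligo-dT before labelling with Cy3.

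From each processed intensity on the log2 scale, that array's 75th percentile (taken over 59305 gene spots) was subtracted. After removal of 3671 control spots and of the outliers flagged on each array (124 to 145), spots of a probe were averaged, giving 55681 probes without a filter on dim ones. Groups were compared with limma (version 3.58.1, R version 4.3.3) and Benjamini-Hochberg adjustment over all probes, without covariates. The threshold, an adjusted p of 0.05 and 1.5-fold, is that of the study's methods. The steps were tested on simulated data. All members are accounted for, with every array's value for those that were called without overlap, and of the other lists the 2 genes with the largest called change in each direction and each called gene acting on methylation or control regions are named. Gene names are those of the array design, probe positions are on mm9. Members and lists were chosen with earlier results of these data known, so their counts describe these genes.

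Between 56.7% and 62.7% of spots were well above background, which limits what can be said of dim genes. A probe dim on all arrays of a group got a bound against the higher, on each array, of its own signal and the lowest signal well above background, so that the bound is the measured fold where its own signal was the higher. Replicate numbers come from the labels, which do not say that a number marks a shared culture. Over 27508 probes, the departures from group means in arrays with one number had correlations of 0.187, 0.189, 0.104 and 0.152, and in other pairs of up to 0.142. Arrays were treated as paired by number in the blocked alternative only. The untreated and RA arrays numbered 1 also shared a slide, as did those numbered 2, while those numbered 3 and 4 did not. For numbers 1 and 2 the correlations cannot tell a shared culture from a shared slide. The study's methods call the samples of a condition biological replicates and do not say how their cultures were separated. Alternatives were the scaling, background correction, the authors' table, outliers, dim probes, the mean of a gene's probes, replicate and slide as blocks, each slide alone, the threshold and leaving out each array. RefSeq tables held promoter windows for 30 of the 36 members.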

Additional observations from a re-analysis of the deposited data

Results flagged for a closer look

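Within groups of 4 arrays, 2 of 70 groups of member values had an array far from the other three by Dixon's ratio at its 95% critical value, where chance alone gives about 1 in 20, or 3.50 of 70. For *Zim1*, RA array 2 read -0.39 while the other RA arrays read 0.50 to 0.52, and the call was kept without that array, at a change of 5.33. For *Rtl1*, RA array 1 read -5.58 against -7.88 to -7.56 on the others, with no array well above background.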

How the results depend on the processing

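Of the 23 called members, 17 kept their call and all 23 their direction in each of the 13 alternatives and with each of the 8 arrays left out. Members called up ranged from 20 to 23 with an array left out, and were 17 on slide 1, 18 on slide 2 and 19 in a test against 1.5-fold. Members called down were 0 in these last 3 settings and 2, with *Tssc4*, without a fold limit. *Ndn* was not called on slide 1 alone (adjusted p = 0.0576), and *Igf2r*, *Meg3*, *Snrpn* and *Mkrn3* not in the test against 1.5-fold. With the replicate number as a block, 23 members were called up and 1 down, all probes gave 7223 up and 12161 down, and the pairing changed no other member's call than that of *Dio3*. With normexp correction the change was smaller for 18 of the 23 called members and larger, by at most 0.038, for 5, with a median of 1.30 over all members.

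The centre of all probes depends on the scaling: their median change was -0.28, and 0.00 after quantile normalization, where 8152 probes were called up and 8704 down in place of 7196 and 12044. Probes called down were 6603 with normexp and quantile normalization, 6575 in the authors' table, 6348 on slide 1, 5453 on slide 2 and 5728 in the test against 1.5-fold; probes called up were 4206, 3964 and 4171 in the last 3. Interval probes called down were 6 after quantile normalization, 7 with normexp and quantile, 7 in the authors' table, 10 on slide 1, 6 on slide 2 and 5 against 1.5-fold, and 11 to 22 with an array left out (11 without untreated array 1); those called up were 13 on slide 2 and 18 against 1.5-fold. Other imprinted genes called down were 5, 4 and 5 on slide 1, slide 2 and against 1.5-fold, those called up 12 on slide 2. Genes acting on DNA methylation or imprinting control regions called down were 6, 7 and 7 in these settings, and 1 was called up with the mean of a gene's probes. There were 5 uncalled members that changed sign. *Rtl1* gave 0.34 after quantile normalization, 0.13 with normexp and quantile and in the authors' table, 0.81 on slide 1 and -0.55 to 0.21 with an array left out. *Rasgrf1* gave -0.091 with normexp, *Ube3a* 0.54 as a mean of probes, *Phlda2* 0.32 on slide 2 and -0.41 to 0.13 with an array left out, and *Slc22a18* -0.0014 to 0.22. The causes were not tested.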

Other observations

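Among the 22 members called up, RA array 2 was the lowest RA array for 12 (54.5%), as it was for 41.8% of all 5074 names called up, and RA array 1 was the highest for 10 (45.5%, against 33.2%). Among the untreated arrays, array 3 was the highest for 11 of the 22 (against 30.99% of 5070 names called up and measured on all untreated arrays).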
